A study of Mus musculus with 9 samples.

Results

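EGR transcription factors and the NAB corepressors that bind them were followed in the RNA of mouse retinal explants, through the 6 genes Egr1, Egr2, Egr3, Egr4, Nab1 and Nab2. The genes were taken by symbol from a table of 55487 genes, and all 6 were found and passed the filter on low counts that left 21049 genes for testing. The explants came from C57BL/6J wild-type animals killed at postnatal day 28, whose retinas were freed of the sclera and the pigment epithelium and kept 48 h in Neurobasal-A that held glucose at 5 mM. The control group (5 libraries) had no further addition and the other group (4 libraries) had 2-deoxy-D-glucose (2-DG) at 20 mM, a glucose analog that cells take up but cannot use for glycolysis. After a rinse, every explant spent 1 h in Krebs' Ringer before its total RNA was made into stranded RNA-seq libraries. The titles call the samples biological replicates, but do not say whether 1 or several animals gave each library. The question behind the comparison was what blocked glycolysis does to transcript levels.

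EGR proteins are zinc-finger transcription factors encoded by immediate-early genes, which are transcribed within minutes of a stimulus without the need for new protein. Growth factor, calcium and stress signals reach them mainly through the ERK kinases, the serum response factor SRF with its ETS partners, and CREB. NAB1 and NAB2 carry no DNA-binding domain of their own and dock on EGR proteins, where they mostly repress transcription together with the NuRD chromatin complex. NAB2 is itself induced by EGR factors, which closes a negative feedback loop. In the retina EGR1 is known best from amacrine cells, where its level follows visual input that guides eye growth.

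On the mouse build GRCm38 Egr1 lies at chr18:34859823-34864984 and Egr3 at chr14:70077203-70082614, both on the plus strand. Egr2 lies at chr10:67535475-67542188 on the plus strand and Egr4 at chr6:85511121-85513589 on the minus strand. Both NAB genes are on the minus strand, Nab1 at chr1:52457294-52500679 and Nab2 at chr10:127660918-127668568. Exons of Nab2 share 1050 bases with the antisense gene Gm16229 on the other strand, 151 with Nemp1 and 40 with Stat6. Whether strand was used in counting is not given in the sources used here, so reads from these stretches may not have been told apart. No other member overlaps an annotated gene.

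Libraries held between 11317734 and 51802249 estimated counts, so that 3 counts corresponded to 0.0556 to 0.255 CPM (counts scaled by library size). The labels place all libraries in 1 batch. Rod genes marked every library as retina, with a summed level of 1617 CPM or more for Nrl, Gnat1, Pde6b and Sag. Control replicate 2 stood apart: its sum of these 4 genes was 15650 CPM against at most 6667 CPM in the other 8 libraries. Its sum of 5 ganglion cell genes was also the highest, 1129 CPM against at most 540.8 CPM. Of these genes Nefl and Sncg were highest in that library, and Rbpms, Pou4f1 and Slc17a6 were not. Results are given with all 9 libraries and with the 8 that remain without control replicate 2. The choice to leave this library out was made with earlier results of these data known. Another library, 2-DG replicate 3, had the highest sum of 4 pigment epithelium genes, 38.1 CPM against at most 7.64 CPM in the other 8. With control replicate 2 it also had the highest sums of 5 cone genes, 633.7 and 510.6 CPM against at most 86.1 CPM in the other 7. Without 2-DG replicate 3 the log2 fold changes of Egr1, Egr2 and Egr3 were -1.01, -1.68 and -2.11. Its markers' part in these levels was not tested. In bulk RNA, fewer cells of a type and less RNA per cell cannot be told apart.

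Levels of Egr1, Egr2 and Egr3 were lower in 2-DG than in 4 of the 5 control libraries, while Egr4, Nab1 and Nab2 ran across both groups. With all 9 libraries, 5 of the 6 genes had a negative fold change and 0 of 6 passed an adjusted p of 0.05 in edgeR's quasi-likelihood test, as did 0% of all genes tested. At an unadjusted p under 0.05, 3 of 6 were lower, against 4.83% of all genes, and 0 of 6 were higher, against 2.42% of all genes. By DESeq2 2 of the 6, Egr2 and Egr3, passed the adjusted threshold, as did 284 of all genes, and by limma-voom with sample weights the same 2 of 6, with 1222 of all genes. Without control replicate 2, Egr3 fell past the adjusted threshold (1 of 6 genes, against 0.0727% of all genes that were called lower), and 3 of 6 were lower at an unadjusted p under 0.05, against 6.07% of all genes. Groups did not overlap for 3 of 6 genes in those 8 libraries, against 4.51% of all genes that were lower without overlap. With all 9 libraries they overlapped for all 6, against 1.41% of all genes that were lower without overlap. The study names Egr3 from these same libraries, so its direction here is not independent evidence.

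**Figure D1:**
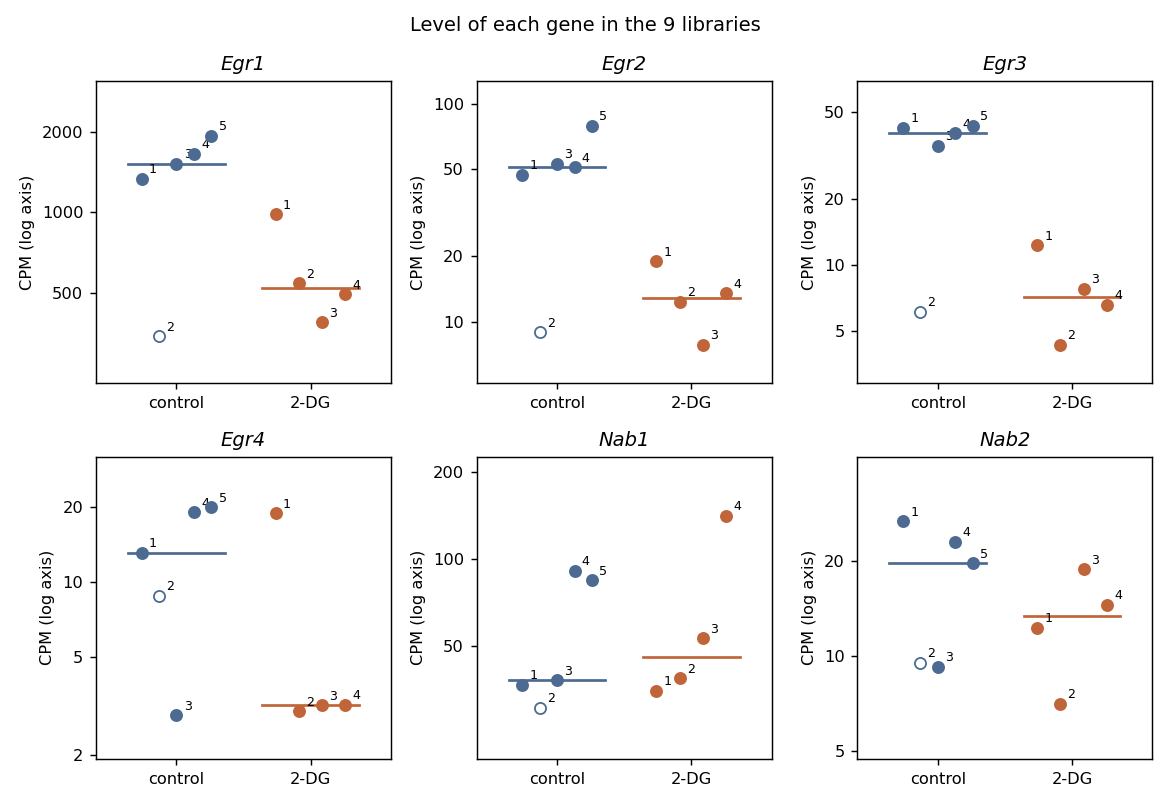
CPM of the 6 genes on a log axis in each library, with control in blue and 2-DG in orange, replicate numbers beside the points and the group median as a line. The open circle is control replicate 2, which lies at 343.9 CPM for Egr1, 8.95 for Egr2 and 6.16 for Egr3, far below the other control libraries, and the 2-DG point at 18.93 CPM stands alone for Egr4.

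Egr1 (also Zif268 or Krox-24), the founding member and the most widely used marker of recent activity in neurons, was the most abundant member in every library. Its level was 1335, 343.9, 1514, 1653 and 1931 CPM in control replicates 1 to 5. It was 982.1, 543.4, 387.3 and 494.3 CPM in 2-DG replicates 1 to 4. The 4 control libraries other than replicate 2 were above all 4 of the 2-DG libraries, and control replicate 2 was below them all. Means were 1355 ± 605.8 CPM (SD, n = 5) in control and 601.8 ± 261.8 CPM (SD, n = 4) in 2-DG. The log2 fold change was -1.17 ± 0.48 (SE), a level 2.25-fold lower, with an unadjusted p of 0.0334 and an adjusted p of 0.656 in edgeR's quasi-likelihood test. In the 8 libraries without control replicate 2 it was -1.42 ± 0.33 (SE) with an adjusted p of 0.138 in the same test. With any 1 library left out of the 9, its unadjusted p stayed under 0.05 in 3 of 9 fits, and it was highest, at 0.0940, without 2-DG replicate 3. The spread among control libraries narrowed from a coefficient of variation of 44.7% to 15.6% when control replicate 2 was left out.

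Egr2 (Krox20), a factor needed for hindbrain segments and for myelination by Schwann cells, had a like pattern over the libraries at a level far below that of Egr1. It had 47.22, 8.95, 52.91, 51.12 and 79.22 CPM in control replicates 1 to 5 and 19.01, 12.35, 7.86 and 13.50 CPM in 2-DG replicates 1 to 4. Control replicate 2 fell between the 2-DG libraries, and the other control libraries were all above them. The log2 fold change was -1.87 ± 0.52 (SE), 3.65-fold lower, with an unadjusted p of 0.00437 and an adjusted p of 0.524 in edgeR's quasi-likelihood test. In the 8-library fit it was -2.14 ± 0.30 (SE), and its adjusted p of 0.0568 missed the threshold. Genes that mark Schwann cells, in which Egr2 is best known, were at low levels: Prx, Ncmap and Cldn19 summed to between 2.98 and 7.47 CPM over all libraries.

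The 250 bases before the start site of Egr2-201, the transcript that carried most Egr2 reads, are shown because they hold the elements through which SRF and CREB are known to act. They come from the RefSeq promoter table (GRCm38.p6, plus strand, chr10:67537619-67537868) and read towards the start, with the matches to the motifs searched in capitals.

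Egr2: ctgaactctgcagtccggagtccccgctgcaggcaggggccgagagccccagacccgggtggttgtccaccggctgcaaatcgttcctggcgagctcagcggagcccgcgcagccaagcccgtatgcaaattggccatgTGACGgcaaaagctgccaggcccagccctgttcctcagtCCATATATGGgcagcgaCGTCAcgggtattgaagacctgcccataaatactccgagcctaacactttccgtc

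Counted back from the start site, the serum response element core, or CArG box, lies at -72 to -63 (CCATATATGG), with cAMP response cores (TGACG, or CGTCA on the other strand) at -111 to -107 and at -55 to -51. Both strands were searched, over 250 bases before and 50 after each RefSeq start, for the CArG box, the EGR site GCGNGGGCG, the full cAMP response element TGACGTCA, its core TGACG, which the full element contains, and the ETS site CCGGAAG. Of 32817 promoters, 1.63% held a CArG box, 5.56% an EGR site, 1.79% a full cAMP response element, 20.8% a cAMP response core and 8.86% an ETS site. A match is a description of the letters only.

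Egr3, a factor induced by neuronal activity and required for muscle spindles, had the largest fitted change of the 6 genes. Control replicates 1 to 5 had 42.38, 6.16, 35.12, 40.11 and 43.26 CPM, and 2-DG replicates 1 to 4 had 12.39, 4.36, 7.82 and 6.61 CPM. The 4 control libraries other than replicate 2 lay within a narrow band whose lowest value, 35.12 CPM, was far above the highest 2-DG value of 12.39 CPM, and control replicate 2 lay inside the 2-DG range. The log2 fold change was -2.11 ± 0.53 (SE), 4.31-fold lower, and its unadjusted p of 0.00239 ranked 88 of 21049 genes, with an adjusted p of 0.524 in edgeR's quasi-likelihood test. Without control replicate 2 Egr3 fell by 2.38 on the log2 scale (SE 0.31), 5.20-fold, with an adjusted p of 0.0449 in the same test, rank 15 of 20632 genes. Leaving out any 1 of 7 of the other 8 libraries on top of control replicate 2 raised that adjusted p to between 0.0899 and 0.222. With 2-DG replicate 4 left out it was 0.0410.

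Egr4, the member with the shortest exons and a transcript largely of the nervous system, did not separate the groups. Its level was 13.11, 8.81, 2.90, 19.03 and 19.94 CPM in control replicates 1 to 5. It was 18.93, 3.02, 3.19 and 3.20 CPM in 2-DG replicates 1 to 4. One library in each group went against the rest, 2-DG replicate 1 at the level of the highest controls and control replicate 3 below every 2-DG library. Egr4 had a log2 fold change of -0.87 ± 0.70 (SE) with an adjusted p of 0.817 in edgeR's quasi-likelihood test, and -0.98 ± 0.77 (SE) with an adjusted p of 0.814 without control replicate 2. Without 2-DG replicate 1 the 9-library value became -2.02 ± 0.59 (SE), with an unadjusted p of 0.00675 and an adjusted p of 0.985 in the same test.

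The 250 bases before the only annotated start of Egr4 (RefSeq, GRCm38.p6, minus strand, chr6:85513590-85513839) are shown beside those of Egr2 as the other EGR promoter searched, again with matches in capitals.

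Egr4: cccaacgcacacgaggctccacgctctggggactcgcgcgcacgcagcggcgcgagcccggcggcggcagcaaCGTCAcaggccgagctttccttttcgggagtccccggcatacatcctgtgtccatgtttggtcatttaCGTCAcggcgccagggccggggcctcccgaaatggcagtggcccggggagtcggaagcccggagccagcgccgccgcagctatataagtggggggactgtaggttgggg

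Here cAMP response cores lie at -177 to -173 and at -109 to -105, and no CArG box, EGR site or ETS site as spelled above was matched in the window. Promoters of 4 of the 6 genes were searched: Egr2 with 5 start sites, and Egr4, Nab1 and Nab2 with 1 each. Those of Egr1 and Egr3 are not reported here.

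Nab1, the corepressor that most tissues make at a steady level, showed no shift between the groups beyond the spread. It had 36.84, 30.64, 38.25, 91.17 and 84.65 CPM in control replicates 1 to 5 and 35.14, 38.82, 53.31 and 141.0 CPM in 2-DG replicates 1 to 4. Control replicates 4 and 5 and 2-DG replicate 4 were far above the other libraries, so that the spread within each group exceeded the difference between them. These 3 libraries also had the highest sums of the endothelial genes Cdh5, Cldn5, Pecam1 and Tie1 (4 of 4 found), 951.7, 1857 and 2580 CPM against 166.7 to 756.8 CPM in the other 6, and the part of endothelial RNA in the Nab1 level was not tested. Nab1 had a log2 fold change of 0.25 ± 0.49 (SE) with an adjusted p of 0.918 in edgeR's quasi-likelihood test. It turned to -0.41 when 2-DG replicate 4 was left out, so its sign rested on 1 library. The window around the RefSeq start of Nab1 held 3 EGR sites, CGCCCACGC at -141 to -133, GCGTGGGCG at -109 to -101 and GCGGGGGCG at -38 to -30, against 5.56% of promoters with any. It also held a cAMP response core, CGTCA at -123 to -119. All 3 EGR sites lie in the first exon of the longer transcript Nab1-201.

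Nab2, the corepressor that EGR factors induce, was at 26.88, 9.52, 9.24, 23.06 and 19.71 CPM in control replicates 1 to 5. It was at 12.31, 7.06, 18.86 and 14.56 CPM in 2-DG replicates 1 to 4. Values of the groups ran into each other, with 3 control libraries above all 2-DG libraries and 2 among them. Nab2 had a log2 fold change of -0.42 ± 0.40 (SE) with an adjusted p of 0.835 in edgeR's quasi-likelihood test, and -0.58 ± 0.39 (SE) with an adjusted p of 0.767 without control replicate 2. None of the motifs above was matched in its window.

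**Figure D2:**
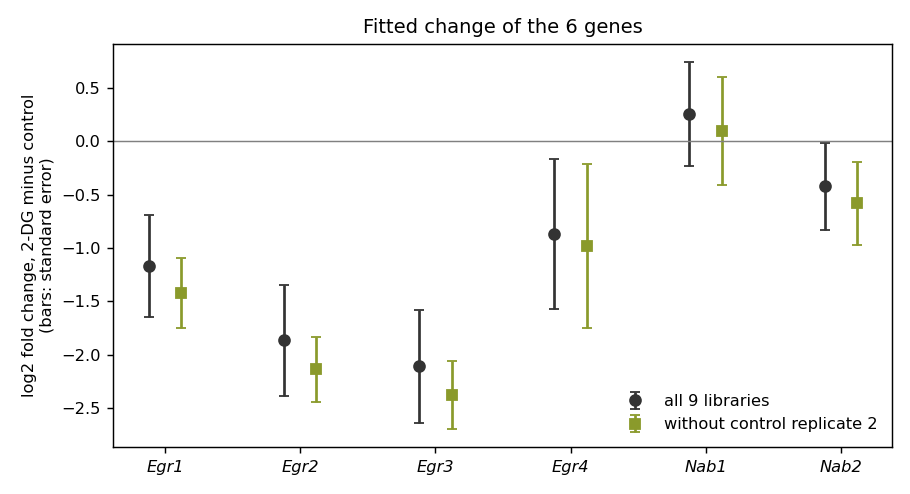
Log2 fold change of 2-DG minus control for the 6 genes, with standard errors, from all 9 libraries (circles) and without control replicate 2 (squares). Egr1, Egr2 and Egr3 lie at -1.17, -1.87 and -2.11 with all libraries and have shorter error bars in the 8-library fit, and the bars of Nab1 cross 0 in both.

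Per kilobase of exon, which makes genes comparable, Egr1 exceeded every other member in every library and made up 90.4% to 95.3% of the summed EGR level. In control its mean level was 302.2 ± 135.1 CPM per kb (SD, n = 5), followed by Egr2 at 14.09 ± 7.41, Nab1 at 13.73 ± 7.09, Egr3 at 7.58 ± 3.53, Nab2 at 6.01 ± 2.72 and Egr4 at 5.94 ± 3.32. Neighbours in this order after Egr1 differed by less than the larger of their SDs. In 2-DG the means were 134.2 ± 58.4 CPM per kb (SD, n = 4) for Egr1, 16.4 ± 12.2 for Nab1, 4.49 ± 1.67 for Nab2, 3.88 ± 1.35 for Egr2, 3.30 ± 3.68 for Egr4 and 1.77 ± 0.77 for Egr3. Egr2 stood above Nab1 in 3 of 5 control libraries and in 0 of 4 of the 2-DG libraries.

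Relative to the corepressors, transcripts of Egr2 and Egr3 were lower in 2-DG by log2 ratios that did not pass correction. The summed EGR level per kb was 18.06, 7.92, 29.08, 13.35 and 17.29 times the summed NAB level in control replicates 1 to 5, and 18.52, 10.72, 4.74 and 2.98 times in 2-DG replicates 1 to 4. 2-DG replicate 1 exceeded 4 of the 5 control libraries, and 2-DG replicates 3 and 4 were below all of them. The log2 ratio of Egr3 to Nab1 (0.5 CPM added to each) differed by -2.02 between the group means, with p = 0.0318 in an exact two-sided permutation test over all regroupings of the libraries and 0.127 after adjustment over 8 ratios. Egr3 to Nab2 differed by -1.50 with the same exact p of 0.0318 and adjusted 0.127, and Egr2 to Nab1 by -1.76 with an exact p of 0.0476 and the same adjusted value. The other 5 ratios also had lower means in 2-DG, with differences of -1.24 to -0.65 and exact p of 0.0873 to 0.341. The smallest p this design allows is 0.00794. Without control replicate 2 the ratios of Egr2 and Egr3 to either NAB gene had an exact p of 0.0286 each, adjusted 0.0571. The unadjusted 0.0286 is the smallest two-sided p that this test can give with 4 against 4 libraries.

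**Figure D3:**
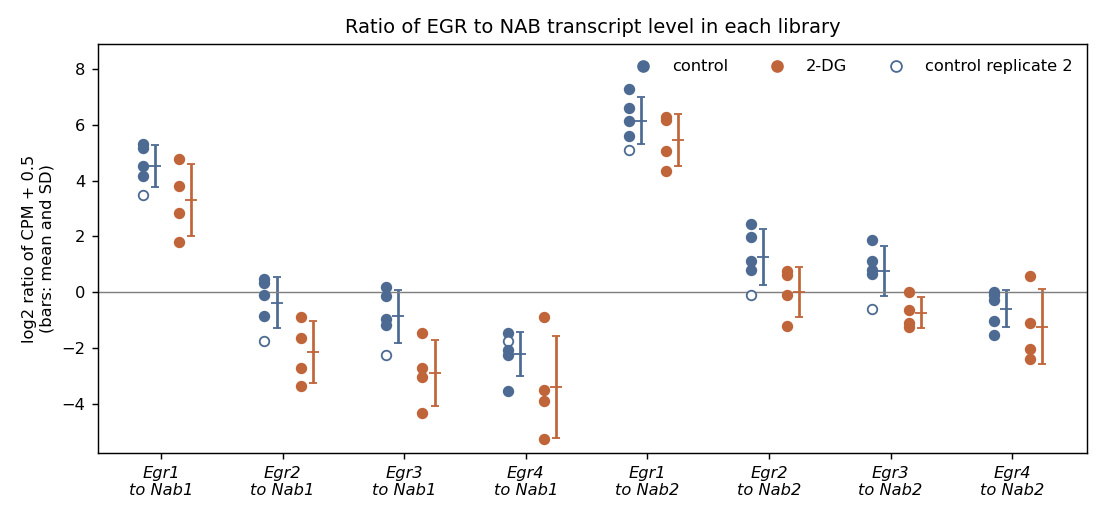
Log2 ratio of CPM + 0.5 of each EGR gene to Nab1 (left) and Nab2 (right) in each library, with control in blue, 2-DG in orange, control replicate 2 open, and bars for the mean and SD. Ratios of Egr3 to Nab1 span -2.23 to 0.20 among control libraries and -4.32 to -1.47 among 2-DG libraries, overlapping through control replicate 2.

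Across the 9 libraries log2 CPM of Egr1, Egr2 and Egr3 moved together. Pearson's r was 0.977 for Egr1 with Egr2, 0.928 for Egr1 with Egr3 and 0.944 for Egr2 with Egr3, a description over 9 points that share the group difference and control replicate 2. Without that library the same values over 8 points were 0.977, 0.927 and 0.937. Egr4 was less like them, with r of 0.516 to 0.562, and Nab1 had r of 0.0130 to 0.198 with the EGR genes. Nab2 had r of 0.615 with Egr3 and 0.426 with Egr1.

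Among 16015 protein-coding genes other than the 6 members, the 3 with a pattern most like that of Egr1 were Irs2 (r = 0.981 over 9 libraries), an adaptor of the insulin receptor, Fosb (r = 0.973), a partner of JUN in AP-1, and Efcab6 (r = 0.969). For Egr3 they were 4930539E08Rik (r = 0.968), Nptx2 (r = 0.964), a secreted pentraxin of excitatory synapses, and Tgm1 (r = 0.962), a transglutaminase. Nptx2 had 186.9 ± 87.8 CPM (SD, n = 5) in control and 53.7 ± 12.1 CPM (SD, n = 4) in 2-DG. For Nab2 they were Evpl (r = 0.957), a component of cell junctions in epithelia, Spred2 (r = 0.932), an inhibitor of ERK signalling, and Mn1 (r = 0.922). These values are the highest of a search, a description over 9 points that share the group difference and control replicate 2. Mean control levels were low for Efcab6 (2.11 CPM), 4930539E08Rik (2.78 CPM), Tgm1 (3.84 CPM) and Evpl (3.09 CPM).

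At the transcript level, 14 of 23 annotated transcripts of the 6 genes passed the filter, and 12 of them were lower in 2-DG. None passed an adjusted p of 0.05 in edgeR's quasi-likelihood test, as did 0% of 62900 transcripts, and 4 of 14 were lower at an unadjusted p under 0.05 (1437 of all transcripts, 2.28%, were), the other direction holding 0. Those 4 were Egr1-202, Egr2-201, Egr3-201 and Egr3-204. Most reads of Egr1 went to Egr1-202, which made up 96.4% ± 1.24 (SD, n = 5) of the gene in control and 96.1% ± 1.17 (SD, n = 4) in 2-DG. Egr1-202 had a log2 fold change of -1.24 ± 0.46 (SE) and an unadjusted p of 0.0231. Egr2-201 made up 91.7% ± 3.35 and 89.6% ± 5.66 of Egr2 in control and 2-DG, and differed by -1.996 ± 0.58 (SE) on the log2 scale with an unadjusted p of 0.00645.

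Egr3 was carried mostly by Egr3-204, with 78.1% ± 2.97 (SD, n = 5) of the gene in control and 74.1% ± 20.2 (SD, n = 4) in 2-DG. The log2 fold change of Egr3-204 was -2.04 ± 0.62 (SE) with an unadjusted p of 0.00789. Egr3-202, annotated as a retained-intron transcript, differed by -1.95 ± 0.96 (SE) with an unadjusted p of 0.0692, from 5.53 ± 2.48 CPM (SD, n = 5) to 1.42 ± 1.27 CPM (SD, n = 4). The SE of Egr3-202 was too large to tell its fold change apart from that of Egr3-204. Egr3-202 held 0%, 41.5%, 10.3% and 39.0% of the gene in 2-DG replicates 1 to 4, against 17.3% ± 2.47 (SD, n = 5) in control. No comparison of spliced and intron-holding transcripts is drawn from it. Nab1 was split between Nab1-201 and Nab1-205, at 49.2% ± 8.36 and 49.4% ± 9.40 of the gene in control and 61.1% ± 9.82 and 38.2% ± 9.90 in 2-DG. Nab2-202 carried 71.1% ± 13.5 of Nab2 in control and 69.2% ± 2.14 in 2-DG.

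**Figure D4:**
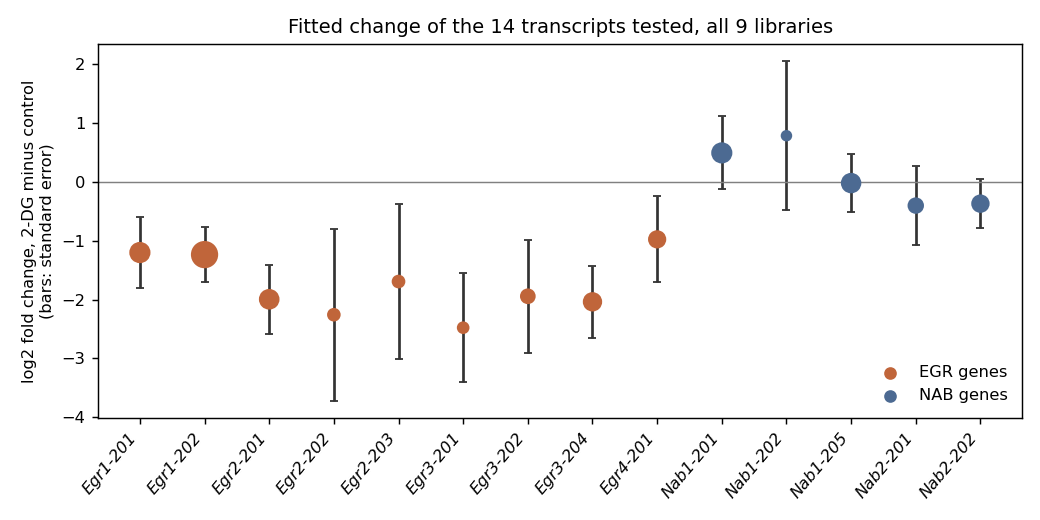
Log2 fold change of 2-DG minus control with standard errors for the 14 transcripts tested, in all 9 libraries, with larger points for higher mean CPM, EGR genes in orange and NAB genes in blue. All transcripts of EGR genes lie below 0, with Egr1-202 at -1.24 and Egr3-204 at -2.04, and those of NAB genes lie on both sides.

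Genes that carry signals to the EGR promoters came next. Of 22 genes of the ERK, SRF and CREB route, 18 were higher and 4 lower in 2-DG, with a median log2 fold change of 0.27 against -0.01 over all genes tested, and 0 passed the adjusted threshold. At an unadjusted p under 0.05, 1 of 22 was lower, against 4.83% of all genes, and 1 higher, against 2.42%. Mrtfb, a coactivator of SRF that responds to actin, went from 45.1 ± 15.3 CPM (SD, n = 5) to 97.3 ± 33.3 CPM (SD, n = 4), a log2 fold change of 1.11 ± 0.33 (SE) with an unadjusted p of 0.00647 and an adjusted p of 0.526 in edgeR's quasi-likelihood test. Its groups did not overlap in all 9 libraries, with at most 59.03 CPM in control and at least 68.44 CPM in 2-DG. It was the 1 gene of these 22 that was higher without overlap, against 1.52% of all genes. Srf, the factor itself, differed by -0.82 ± 0.35 (SE) with an unadjusted p of 0.0411, and Rps6ka3, which encodes the ERK-activated kinase RSK2, by 0.48 ± 0.29 (SE) with 0.129. The median was again 0.27 without control replicate 2, and in those 8 libraries Srf was the 1 gene of these 22 that was lower in 2-DG without overlap, against 4.51% of all genes. In control replicate 2 Srf was at 26.1 CPM, inside the 2-DG range of 24.5 to 41.3 CPM. Over all libraries Srf had 58.0 ± 26.1 CPM (SD, n = 5) in control and 32.9 ± 9.24 CPM (SD, n = 4) in 2-DG.

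Cofactors and regulators of EGR proteins, among them the NuRD subunits to which NAB2 binds, were counted in the same way. Of 21 genes, 17 were higher and 4 lower, with a median of 0.21, and 0 passed the adjusted threshold. At an unadjusted p under 0.05, 1 of 21 was lower, against 4.83% of all genes, and 2 were higher, against 2.42%. Without control replicate 2, 2 were lower, against 6.07% of all genes, and 3 higher, against 2.92%. The median was then 0.18, and 0 passed the adjusted threshold. Nfatc2, a calcium-regulated factor that works with EGR proteins on cytokine genes, had 19.2 ± 6.97 CPM (SD, n = 5) in control and 8.77 ± 1.72 CPM (SD, n = 4) in 2-DG, a log2 fold change of -1.13 ± 0.33 (SE) with an unadjusted p of 0.00614. Hcfc1, a chromatin-bound coregulator, differed by 0.56 ± 0.21 (SE) with an unadjusted p of 0.0201 and Wwp2, a ubiquitin ligase, by 0.43 ± 0.19 (SE) with 0.0480.

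Genes reported elsewhere as EGR targets were uneven. Of 19 genes tested, 12 were lower and 7 higher, with a median of -0.42, and 0 passed the adjusted threshold. At an unadjusted p under 0.05, 3 of 19 were lower, against 4.83% of all genes, and 0 higher, against 2.42%. Arc, which encodes a synaptic protein and is also an immediate-early gene, had 188.9 ± 104.2 CPM (SD, n = 5) in control and 24.9 ± 19.0 CPM (SD, n = 4) in 2-DG, with 25.9 CPM in control replicate 2. Its log2 fold change was -2.92 ± 0.68 (SE) with an unadjusted p of 0.00141 and an adjusted p of 0.514 in edgeR's quasi-likelihood test. Rrad, a small GTPase, differed by -1.60 ± 0.70 (SE) with an unadjusted p of 0.0442, and Ngfr, the low-affinity neurotrophin receptor, by -1.38 ± 0.61 (SE) with 0.0452. When control replicate 2 was left out, 7 of the 19 were lower at an unadjusted p under 0.05, against 6.07% of all genes, and the median was -0.22. Syn1, Syn2 and Cdk5r1, neuronal genes on the list, had log2 fold changes of 0.19 ± 0.53 (SE), -0.11 ± 0.65 (SE) and -0.08 ± 0.35 (SE).

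Other immediate-early genes lay mostly on the side of the EGR genes. Of 26, 23 were lower and 3 higher, with a median of -0.75 against -0.01 over all genes, and 0 passed the adjusted threshold. At an unadjusted p under 0.05, 7 of 26 were lower, against 4.83% of all genes, and 1 higher, against 2.42%. Without control replicate 2, 13 were lower, against 6.07% of all genes, and 1 higher, against 2.92%, with a median of -0.92. Besides Arc, the list was led by Fosb, with 501.7 ± 299.3 CPM (SD, n = 5) in control and 142.8 ± 55.3 CPM (SD, n = 4) in 2-DG, a log2 fold change of -1.81 ± 0.56 (SE) and an unadjusted p of 0.00871. Btg2, an antiproliferative cofactor of mRNA decay, differed by -0.72 ± 0.23 (SE) with an unadjusted p of 0.0115. The gene with a higher level at this threshold was Nr4a2, an orphan nuclear receptor, at 1.12 ± 0.40 (SE).

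**Figure D5:**
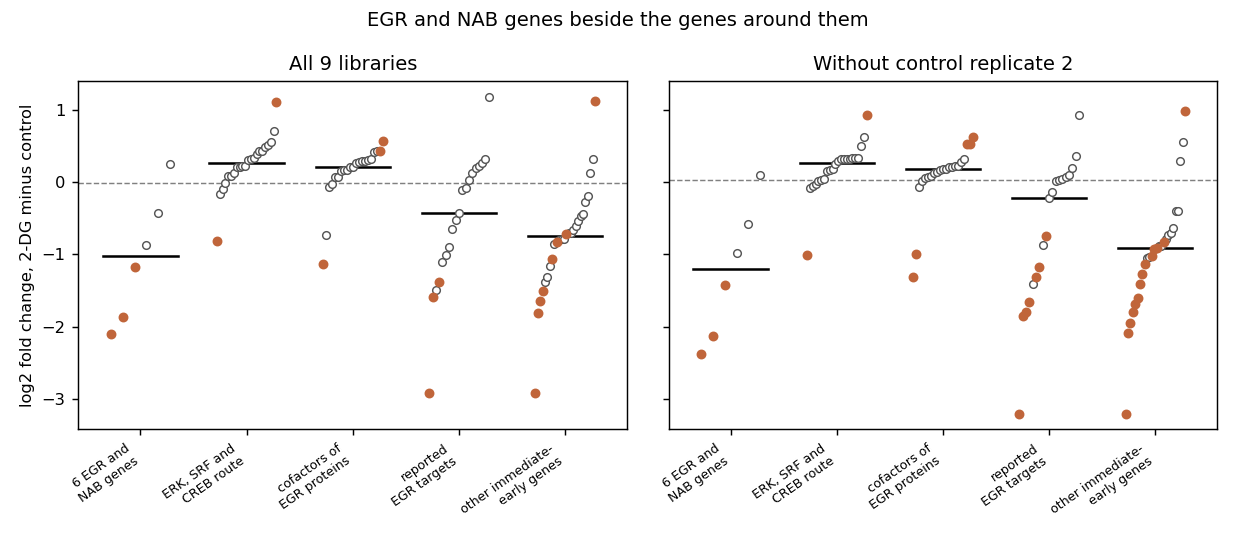
Log2 fold change of 2-DG minus control for each gene of the 6 EGR and NAB genes and of 4 lists, with all 9 libraries (left) and without control replicate 2 (right). Filled points have an unadjusted p under 0.05, black lines are medians and the dashed line is the median over all genes; other immediate-early genes have a median of -0.75 on the left and -0.92 on the right.

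Control replicate 2 had 2 of the 6 genes below the whole 2-DG range and 4 within it. Of the other immediate-early genes it had 13 of 26 below that range, 12 within it and 1 above, and of the ERK, SRF and CREB route 11 of 22 below, 9 within and 2 above. It had 14 of the 21 cofactors and regulators below, 5 within and 2 above, and 9 of the 19 targets below, 9 within and 1 above. Over all genes tested, 28.3% were below that range in this library, 42.4% within it and 29.3% above. Markers of other cells were compared as summed CPM. Müller glia, represented by Rlbp1, Glul, Slc1a3, Sox9 and Aqp4 (5 of 5 found), had 1372 to 5893 CPM in control and 548.1 to 2378 CPM in 2-DG, groups that overlapped. Among these 5 genes Sox9, a transcription factor of Müller glia, was the 1 that separated the groups without control replicate 2. Of all genes, 4.51% were lower in 2-DG without overlap when that library was left out. Sox9 had 111.5, 20.91, 114.6, 195.5 and 193.9 CPM in control replicates 1 to 5 and 25.21, 37.21, 13.97 and 34.29 CPM in 2-DG replicates 1 to 4. Control replicate 2 thus lay inside the 2-DG range for Sox9, as it did for Egr2, Egr3 and 42.4% of all genes tested. Of 17 lists, the skeletal muscle list (Myod1, Myog, Myh4, Acta1, Ckm and Des, 6 of 6 found) was the 1 that separated the groups once control replicate 2 was left out, with at least 32.1 CPM in control and at most 26.8 CPM in 2-DG. That separation lay in Myod1, with 24.8 to 46.1 CPM in those 4 control libraries, 1.22 CPM in control replicate 2 and 0.185 to 4.23 CPM in 2-DG. The rest of the list had 7.34 to 36.9 CPM and 12.1 to 22.6 CPM, and the defining muscle genes Myog and Myh4 were at 0 in every library except for Myh4 at 0.0286 CPM in 2-DG replicate 4. The part of cell make-up in the EGR levels was not tested.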

How the data were processed

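Total RNA of 9 explant libraries was sequenced as read pairs from a stranded kit. The authors deposited estimated counts per gene (55487) and per transcript (142699), which the submitters' processing notes link to kallisto and the build GRCm38 (kallisto version not given in the sources used here). The authors also deposited a signal table of scaled CPM for 12568 genes, used only as a check: for the 5 members compared, CPM computed here differed by at most 10.05%. A deposited table of the authors' comparison (fold changes, p-values) was not used.

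Estimated counts were rounded and compared with edgeR 4.0.16 in R 4.3.3 (filterByExpr, TMM, glmQLFit with legacy=TRUE and robust=FALSE, glmQLFTest), with no term beside the group and Benjamini-Hochberg adjustment over all 21049 genes or 62900 transcripts. The main fit used 9 libraries and a second one left out control replicate 2. DESeq2 1.42.0 and limma 3.58.1 gave alternatives. EGR to NAB ratios were tested by exact permutation with 0.5 CPM added. CPM are on TMM-scaled library sizes, and log2 CPM for correlations used a prior count of 2. The fit was tested on simulated data. Transcript counts carry an uncertainty of assignment that the deposited values do not hold.

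Groups came from sample titles, which the treatment label repeats, since the treatment protocol names 2-DG in the same words for both groups. Control replicate 2 went against the other controls, and its label was not tested. Members and lists were chosen with earlier results of these data known. Named genes were the members, the 3 genes of each list with the smallest unadjusted p, the 3 protein-coding genes, members left out, most correlated with Egr1, Egr3 and Nab2, and the transcripts tested. Syn1, Syn2, Cdk5r1, Nr4a2, Sox9 and Myod1 were named after their values were seen. Coordinates and exon lengths are from GENCODE M21, promoters from RefSeq. P-values set the group difference against the spread between these libraries. Some marker and list genes are not reported here, and the rod and Schwann cell sums are over the genes named.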

Additional observations from a re-analysis of the deposited data

Results flagged for a closer look

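In control replicate 2 Egr3 was at 6.157 CPM, while the nearest other control library was at 35.12 CPM. This gap took up 0.7805 of the whole range of the 5 control libraries, more than Dixon's 95% limit allows. In 2-DG replicate 1 Egr4 was at 18.93 CPM, with the nearest 2-DG library at 3.203 CPM and a gap of 0.9883 of the range of the 4 libraries. Of 28 groups of values examined (12 of gene levels and 16 of EGR to NAB ratios), 2 stood out in this way, and chance alone marks about 1 in 20 groups. Control replicate 2 was also the library with the highest sum of the rod genes Nrl, Gnat1, Pde6b and Sag, 15650 CPM. Its part in the Egr3 level was not tested.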

How the results depend on the processing

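Egr1, Egr2, Egr3, Egr4 and Nab2 were lower in 2-DG under all 18 alternatives of the 9-library comparison and all 16 of the one without control replicate 2. How many of the 6 genes passed the adjusted threshold depended on the setting. With 9 libraries it was 0 in edgeR, 2 with DESeq2, 2 with limma-voom and 0 to 1 with any 1 library left out. Without control replicate 2 (alternatives chosen after seeing the data) it was 1 in the main setting, 0 with DESeq2 size factors in edgeR, 3 with DESeq2, 3 with limma-voom, 2 with total counts, with upper-quartile scaling, without a low-count filter and with a minimum of 1 CPM, and 0 to 2 with 1 more library left out. Over all genes these 8-library settings called 16 of 20632 in the main setting, 14 with DESeq2 size factors, 780 with DESeq2, 2092 with limma-voom, 116 with total counts, 26 with upper-quartile scaling, 35 of 37088 without a filter and 24 of 16550 with the minimum of 1 CPM. With 1 more library left out, 177 of 21331 genes passed without 2-DG replicate 4, and 0 passed without any other library. The cause was not tested. Of the 4 lists 0 genes passed in edgeR, 1 with DESeq2 and 16 with limma-voom, which put 5474 of all 21049 genes at an unadjusted p under 0.05 against 1526 in edgeR. At an unadjusted p under 0.05 the lists held 15 of their 87 genes, 41 with limma-voom and 7 to 27 with 1 library left out, where 27 was without control replicate 2 and 24 without 2-DG replicate 4. Over all genes, that threshold was passed by 1855 of 20632 without control replicate 2 and by 2721 of 21142 without 2-DG replicate 4. EGR to NAB ratios and transcripts gave 0 calls under every setting run.

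Nab1 changed sign. Its log2 fold change was -0.57 with limma-voom and -0.41 to 0.47 with 1 library left out. Without control replicate 2 it was -0.055 with total counts, -0.74 with limma-voom and -0.57 to 0.31 with 1 more library left out. With 1 library left out Nab1-205 ran from -0.69 to 0.27, Nab1-201 from -0.32 to 0.87 and Nab1-202 from -0.024 to 1.08. Deviations of same-numbered libraries had r of 0.45, 0.10 and 0.21 in 3 pairs and -0.15 in the other, so not every pair passed 0.1 and the numbers were not taken as pairs. With the replicate number as a block, 0 of the 6 genes passed the adjusted threshold, 2 had an unadjusted p under 0.05, and 10 genes of the lists did, against 1351 of all 21049 genes, of which 0 passed the adjusted threshold. The unadjusted p of Egr1 went from 0.0334 to 0.106 under the block, with a log2 fold change of -0.89.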
